A study of Rattus norvegicus with 24 samples.

Results

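The genes described here are Haghl, Glt8d1, Lmbr1l, Ppil6, Csf2ra and Cdc23, 6 of the 37403 gene identifiers in the expression tables of rat nucleus accumbens (NAC) and ventral tegmental area (VTA). They were chosen by their values in the NAC libraries: among genes with a symbol there, they had the smallest p-values for a higher level in the offspring of morphine-exposed sires, with differences that were small in size. The NAC difference between sire groups is therefore what selected them: it is described below without a test, and nothing is supported with it. The VTA libraries and the promoter sequences were not used in the choice. The spread within each sire group was, since every p-value depends on it, so genes of small spread were favoured. How the genes vary with each other from library to library was not used. All 6 passed the filter on low counts in both regions, where 18220 genes were tested in NAC and 19923 in VTA.

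The tissue came from F1 rats, adult (at least 60 days old) and male per the labels, whose fathers had self-administered either morphine (MOR-sired) or saline (SAL-sired) for 60 days. Bilateral punches of NAC gave 7 libraries per sire group, and those of VTA gave 5 per group. All libraries share the same directional total-RNA preparation, and the offspring's own drug history is not given in the sources used here. The labels call the libraries biological replicates without naming an animal or litter, so a p-value here speaks only to the spread among the libraries sequenced.

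Library totals were 21.9 to 41.3 M estimated counts in NAC and 23.6 to 43.5 M in VTA (M, 1e6 counts), with 24664 to 26962 genes detected per library. Th, the rate-limiting enzyme of dopamine synthesis, was at 1223 CPM or more in every VTA library and at 1.87 CPM or less in every NAC library (CPM, estimated counts per 1e6 counts). The NAC punches varied in makeup: Ppp1r1b, which encodes DARPP-32 of striatal medium spiny neurons, ran from 157 CPM in MOR-sired NAC 2 to 3057 CPM in MOR-sired NAC 4. In VTA, 4 of the libraries (SAL-sired VTA 5 and MOR-sired VTA 3, 4 and 5) held Xist, the RNA that coats the inactive X chromosome of females, at 78.9 to 108 CPM, which goes against the male label. The other 6 VTA libraries had at most 0.245 CPM of Xist. Ddx3y, a gene of the Y chromosome, was at 0.0762 CPM or less in those 4 and at 40.3 to 57.5 CPM in the other 6. By both genes the 4 read as female, 3 of them MOR-sired and 1 SAL-sired, so sex was unequally spread over the VTA sire groups. The VTA sire differences of the 6 genes and their correlations with each other and with Meg3 are also given without those 4.

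The 6 genes belong to unrelated families. Haghl encodes a relative of HAGH (glyoxalase II), the hydrolase that completes the glutathione-dependent removal of methylglyoxal. Glt8d1 encodes a Golgi-resident enzyme of glycosyltransferase family 8, and variants of its human counterpart have been reported in amyotrophic lateral sclerosis. Ppil6 encodes a cyclophilin-like protein, a family whose members catalyse the isomerisation of proline peptide bonds. Lmbr1l encodes a multi-pass membrane protein, first described as a receptor for lipocalin-1 and later as a brake on Wnt signalling in lymphocytes. Csf2ra encodes the ligand-binding alpha chain of the receptor for the cytokine GM-CSF, which signals together with the beta common chain Csf2rb and is best known from myeloid cells, microglia included. Cdc23 encodes a scaffold subunit of the anaphase-promoting complex, the ubiquitin ligase that ends mitosis and that also works in neurons that no longer divide.

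The promoters of these genes do not look alike. RefSeq (assembly GRCr8) has a promoter entry for 6 of the 6 genes, with 10 annotated starts in all, 4 of them for Haghl and 2 for Lmbr1l. In the 250 bases before the start, GC content ran from 45.2% for Cdc23 to 75.2% for Glt8d1, against a median of 57.6% over 17556 promoters of genes tested in NAC. Glt8d1 is printed as the most GC-rich of them, and Ppil6 as the window with the most motif matches. Csf2ra and Meg3, an imprinted long noncoding RNA of neurons, are printed because their levels went together in NAC, as described further on. Each is written 5′ to 3′ on the gene's own strand. Capitals mark matches on either strand to 7 short motifs that factors of broad expression, cyclic AMP signalling or cilia genes are known to bind. They were the GC box (GGGCGG), which Sp-family factors bind, and the CCAAT box, bound by NF-Y. The others were the TATA box (TATAAA), the E-box (CACGTG) and the cyclic AMP response element or CRE (TGACGTCA). The last were the motif of ETS factors (CCGGAA) and that of the RFX factors of cilia genes (GTTGCC). Matches of different motifs did not overlap in these windows.
Csf2ra (chr14:118118-118367, minus strand): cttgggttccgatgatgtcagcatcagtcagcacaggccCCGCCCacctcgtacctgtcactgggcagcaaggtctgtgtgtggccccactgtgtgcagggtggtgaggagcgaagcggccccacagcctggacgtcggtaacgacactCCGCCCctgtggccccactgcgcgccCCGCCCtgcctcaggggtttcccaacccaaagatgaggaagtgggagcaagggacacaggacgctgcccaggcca
Meg3 (chr6:134273806-134274055, plus strand): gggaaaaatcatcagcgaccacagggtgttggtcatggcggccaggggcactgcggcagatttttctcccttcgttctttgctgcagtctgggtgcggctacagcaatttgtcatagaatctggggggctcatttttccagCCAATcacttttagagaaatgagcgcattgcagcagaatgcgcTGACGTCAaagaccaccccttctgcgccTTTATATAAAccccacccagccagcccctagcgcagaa
Glt8d1 (chr16:6198464-6198713, plus strand): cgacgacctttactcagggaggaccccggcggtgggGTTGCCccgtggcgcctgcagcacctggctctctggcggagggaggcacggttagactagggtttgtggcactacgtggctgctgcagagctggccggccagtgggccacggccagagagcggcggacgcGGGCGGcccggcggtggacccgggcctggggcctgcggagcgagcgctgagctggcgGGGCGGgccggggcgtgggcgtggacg
Ppil6 (chr20:46571687-46571936, plus strand): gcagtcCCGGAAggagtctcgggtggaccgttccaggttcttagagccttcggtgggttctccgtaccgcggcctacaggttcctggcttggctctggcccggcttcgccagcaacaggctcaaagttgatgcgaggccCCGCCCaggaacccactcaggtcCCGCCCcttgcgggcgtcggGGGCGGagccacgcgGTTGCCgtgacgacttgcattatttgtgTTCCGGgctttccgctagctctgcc

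The Csf2ra window holds 3 GC boxes and no other match. The Meg3 window holds no GC box but a CCAAT box, a CRE and a TATA box that is matched on both strands by overlapping letters. The Glt8d1 window holds 2 GC boxes and 1 GTTGCC, and the Ppil6 window 3 GC boxes, 2 ETS motifs and 1 GTTGCC. Each of the 2 Lmbr1l windows holds 3 GC boxes, and 1 of the 4 Haghl windows holds 2. Cdc23 has none, and its single match is a CCAAT box. A GC box is present in 47.4% of the promoters of tested genes, a CCAAT box in 33.9%, an ETS motif in 18.4%, a GTTGCC in 10.1%, an E-box in 7.23%, a TATA box in 7.90% and a CRE in 2.26%. Of the 10 windows of the 6 genes, the GC box was thus matched in 6, CCAAT in 5, GTTGCC in 2 and the ETS motif in 1, and the other 3 motifs in none. The 2 Lmbr1l windows overlap, as do 2 of the 4 Haghl windows. A match is a description of the letters and not a binding site.

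Among the enzymes, Glt8d1 had the clearest separation in NAC. Its level ran from 21.1 through a median of 25.0 to 26.4 CPM in the SAL-sired libraries and from 27.2 through 31.7 to 37.8 CPM in the MOR-sired ones. Every MOR-sired library was above every SAL-sired library, and MOR-sired NAC 4, 6 and 7 stood together at the top, each above 37 CPM. The means were 24.4 ± 1.80 and 32.8 ± 4.71 CPM (SD, n = 7 each), a 1.34-fold difference (95% interval 1.18 to 1.52). Haghl ran from 17.8 through 19.1 to 20.3 CPM in the SAL-sired group and from 20.2 through 24.6 to 29.1 CPM in MOR-sired libraries. The SAL-sired libraries were tightly grouped, and only MOR-sired NAC 3, at 20.2 CPM, reached into their range. The Haghl means were 19.1 ± 0.845 and 24.6 ± 2.92 CPM, 1.29-fold apart (1.16 to 1.43). Ppil6 was lower, from 6.07 through 8.07 to 8.91 CPM in the SAL-sired group and from 8.34 through 11.4 to 12.5 CPM in MOR-sired libraries. It had the widest difference in relative terms, 1.42-fold (1.20 to 1.69), with MOR-sired NAC 1 inside the SAL-sired range.

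Of the membrane proteins, Lmbr1l ran from 12.6 through 13.8 to 16.4 CPM in the SAL-sired group and from 15.8 through 18.3 to 22.3 CPM in MOR-sired NAC, a 1.32-fold difference (1.16 to 1.50). Csf2ra ran from 6.77 through 8.26 to 9.03 CPM in the SAL-sired group and from 8.82 through 10.8 to 11.9 CPM in MOR-sired libraries, a 1.31-fold difference (1.15 to 1.49). In both, MOR-sired NAC 3 was the single MOR-sired library below the highest SAL-sired one, SAL-sired NAC 6. Cdc23, the complex subunit, had the smallest difference and the smallest spread. It ran from 29.9 through 31.9 to 32.4 CPM in the SAL-sired group and from 33.0 through 34.8 to 37.8 CPM in MOR-sired libraries, 1.12-fold apart (1.06 to 1.18). Its groups did not overlap, although SAL-sired NAC 6 and MOR-sired NAC 3 stood next to each other at 32.4 and 33.0 CPM.

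**Figure D1:**
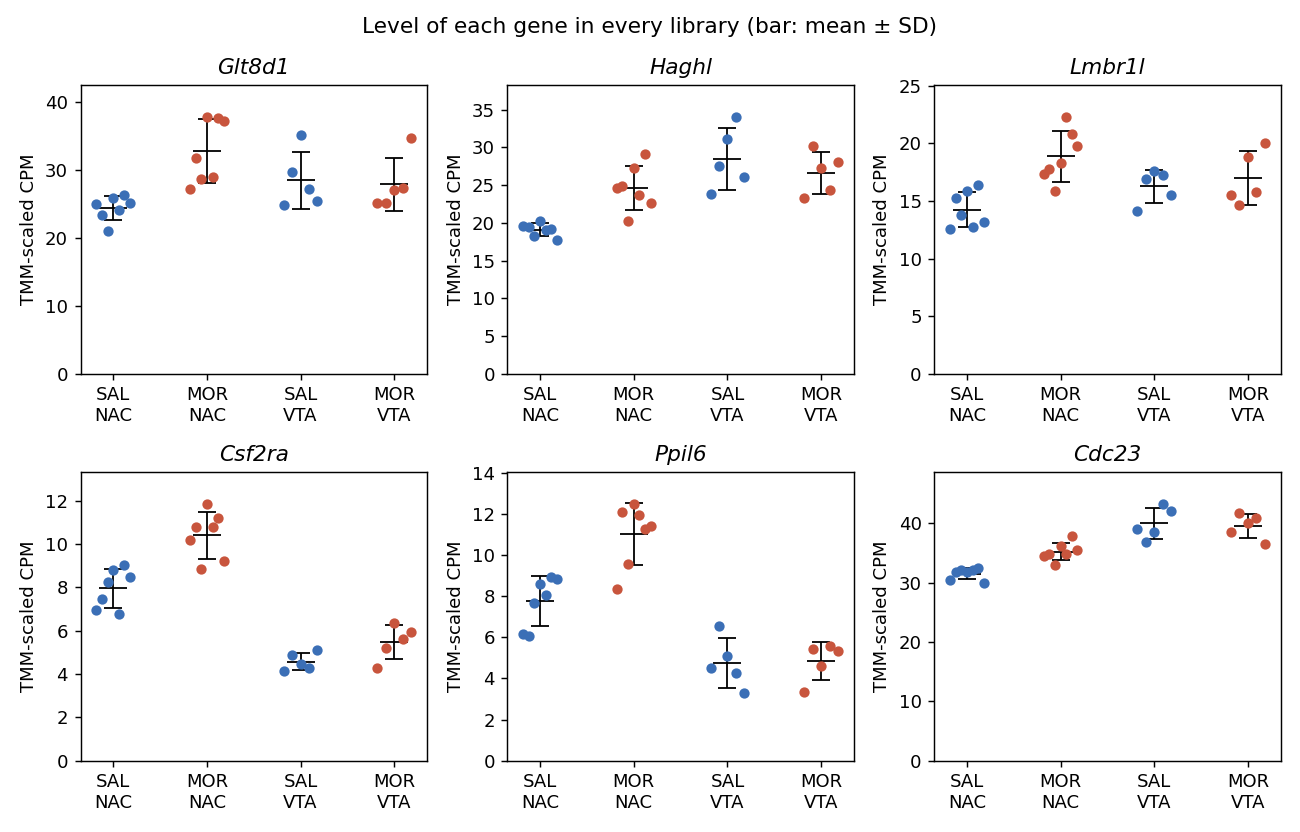
Level of each gene in every library, in TMM-scaled CPM (vertical axis, from 0), for SAL-sired (blue) and MOR-sired (red) libraries of NAC and VTA. Points are libraries, and black bars are mean ± SD. In NAC the red points stand above the blue ones, without overlap for Glt8d1 and Cdc23, and in VTA the 2 sire groups overlap for all 6 genes.

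Glt8d1 and Cdc23 were 2 of the 10 genes (0.0549% of those tested) in which every MOR-sired NAC library exceeded every SAL-sired one. All 6 were among the genes with a log2 difference above 0 (49.5% of those tested) and among the 800 genes (4.39%) higher in MOR-sired NAC at an unadjusted p under 0.05. These counts follow from how the genes were picked. After adjustment over all genes, edgeR's quasi-likelihood test called no gene in NAC (0% of 18220), and its smallest adjusted p was 0.56, while 1126 genes (6.18%) had an unadjusted p under 0.05. DESeq2 called 4 genes in NAC and limma-voom with quality weights per library called 52. For the 6 genes no tool's p in NAC is read as a result, since each would test the values that selected them.

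The choice of the 6 was a place to stop in a list that goes on smoothly. The last gene inside was Csf2ra, and the next named genes by p were Hdac3 (a histone deacetylase), Cfp (the complement regulator properdin) and Mrs2 (a mitochondrial magnesium channel). Hdac3 was at 67.2 to 70.8 CPM in the SAL-sired group and 72.3 to 81.3 CPM in MOR-sired NAC, with no overlap and a 1.10-fold difference. The Cfp difference was 1.45-fold, with 5 of the 7 MOR-sired libraries above the SAL-sired range. Mrs2 differed 1.16-fold, with 6 of 7 above it.

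The same libraries tended to hold the extremes. MOR-sired NAC 3 was the lowest MOR-sired library for 4 of the 6 genes (Haghl, Lmbr1l, Csf2ra and Cdc23), and MOR-sired NAC 1 was the lowest for the other two. MOR-sired NAC 4 was the highest for Glt8d1, Ppil6 and Csf2ra. Among the SAL-sired libraries, SAL-sired NAC 6 was the highest for 5 of the 6, Haghl being the exception.

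That order goes partly with the library numbers in the labels. Numbers 1 to 8 hold 5 SAL-sired and 3 MOR-sired libraries, and numbers 9 to 14 hold 2 and 4, so the groups are unequally spread over them. In MOR-sired NAC, Glt8d1 averaged 29.2 CPM in libraries 1 to 8 and 35.4 CPM in libraries 9 to 14, and Lmbr1l averaged 17.0 and 20.3 CPM. In SAL-sired NAC, Ppil6 averaged 7.31 and 8.88 CPM over the same numbers. Haghl and Cdc23 were the exceptions in SAL-sired NAC, where both averaged slightly less in libraries 9 to 14 (18.5 against 19.3 CPM for Haghl).

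Within both ranges of numbers the differences of all 6 genes were above 0. Their choice from these same libraries favours that sign, so it is a description only. Within libraries 1 to 8, the log2 fold changes were 0.26 for Haghl, 0.29 for Glt8d1, 0.27 for Lmbr1l, 0.45 for Ppil6, 0.37 for Csf2ra and 0.10 for Cdc23. Within libraries 9 to 14 they were 0.47, 0.45, 0.45, 0.40, 0.29 and 0.21 in the same order. Over all NAC libraries they were 0.37, 0.42, 0.40, 0.51, 0.39 and 0.16. Libraries 1 to 8 thus held 64.7% of the overall log2 difference for Cdc23, 66.7% for Lmbr1l, 67.6% for Glt8d1 and 70.7% for Haghl. For Ppil6 and Csf2ra they held 88.9 and 96.7%. With the 2 ranges of numbers as a term in the edgeR model, 85.0 to 95.7% of each overall log2 difference was left. The labels do not say what the library numbers stand for, and their part in the differences was not tested further.

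In VTA, whose libraries played no part in the choice, none of the 6 genes passed the test (edgeR, adjusted p under 0.05, 0% of 19923 genes called). At an unadjusted p under 0.05, 1058 VTA genes (5.31%) passed, 2.75% of all being higher in MOR-sired libraries, and none of the 6 did. In 0.552% of VTA genes every MOR-sired library was above every SAL-sired one, and none of the 6 was among these. DESeq2 called 30 VTA genes and limma-voom none, again with 0 of the 6. Of the 6 log2 differences, 3 were above 0, next to 47.4% of all tested genes, and their median was 0.01, next to -0.01 over all genes.

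Haghl in VTA was 23.8, 27.5, 31.1, 34.0 and 26.0 CPM in SAL-sired VTA 1 to 5 and 23.3, 30.2, 27.2, 24.3 and 28.0 CPM in MOR-sired VTA 1 to 5. The SAL-sired libraries held both of the highest values, and the log2 difference was -0.10 (SE 0.11), with a 95% interval for the fold of 0.793 to 1.10 (edgeR, adjusted p = 0.992). Glt8d1 was 24.9, 29.7, 35.2, 27.2 and 25.5 CPM in the SAL-sired group and 25.2, 25.2, 27.1, 27.4 and 34.7 CPM in MOR-sired VTA. A single library in each group stood high, SAL-sired VTA 3 and MOR-sired VTA 5, and the fold interval was 0.819 to 1.17.

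Lmbr1l was 14.1, 16.9, 17.6, 17.3 and 15.5 CPM in the SAL-sired group and 15.6, 14.6, 18.8, 15.8 and 20.1 CPM in MOR-sired VTA, and its fold interval was 0.895 to 1.22. MOR-sired VTA 3 and 5 were above all SAL-sired libraries, and the other 3 lay among them. Ppil6, the least precise of the 6, was 4.52, 6.57, 5.08, 4.27 and 3.28 CPM in the SAL-sired group and 3.35, 5.44, 4.60, 5.59 and 5.34 CPM in MOR-sired VTA. Its groups covered nearly the same range, and its fold interval of 0.758 to 1.39 leaves room for differences of either sign. Cdc23 was 39.1, 36.9, 38.6, 43.3 and 42.0 CPM in the SAL-sired group and 38.6, 41.7, 40.0, 40.9 and 36.6 CPM in MOR-sired VTA. The groups overlapped throughout, and the interval was narrow, 0.906 to 1.08-fold.

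Csf2ra came nearest to a difference in VTA. It was 4.13, 4.88, 4.46, 4.28 and 5.09 CPM in the SAL-sired group and 4.26, 5.20, 6.33, 5.62 and 5.93 CPM in MOR-sired VTA. All MOR-sired libraries but MOR-sired VTA 1 were above the highest SAL-sired one, and the log2 difference was 0.26 (SE 0.12, fold 1.20, interval 0.995 to 1.44). It did not pass the test (edgeR, adjusted p = 0.946).

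The libraries with Xist bear on this value directly. Csf2ra was 5.09 to 6.33 CPM in the 4 libraries with Xist, 3 of them MOR-sired, and 4.13 to 5.20 CPM in the 6 without it. Leaving out those 4 libraries, which leaves 4 SAL-sired and 2 MOR-sired, the log2 difference of Csf2ra was 0.09 (SE 0.16; edgeR, adjusted p = 0.955). The remaining differences were then -0.12 for Haghl, -0.22 for Glt8d1, -0.13 for Lmbr1l, -0.22 for Ppil6 and 0.02 for Cdc23, so those of Lmbr1l and Ppil6 fell below 0 and that of Cdc23 rose above it, all with intervals that include 0. The 4 libraries with Xist also had high library numbers and totals of 37.1 to 43.5 M, and these properties cannot be told apart in so few libraries.

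Set side by side, the VTA interval stopped short of the NAC estimate for 5 of the 6 genes. For Cdc23 the upper VTA bound was 1.08-fold and the NAC estimate 1.12-fold, and for Haghl they were 1.10 and 1.29. Ppil6 was close, with an upper bound of 1.39 and an estimate of 1.42. For Csf2ra the VTA interval contained the NAC estimate. Because the NAC estimates belong to genes picked for a high value, the difference between the regions was not tested.

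**Figure D2:**
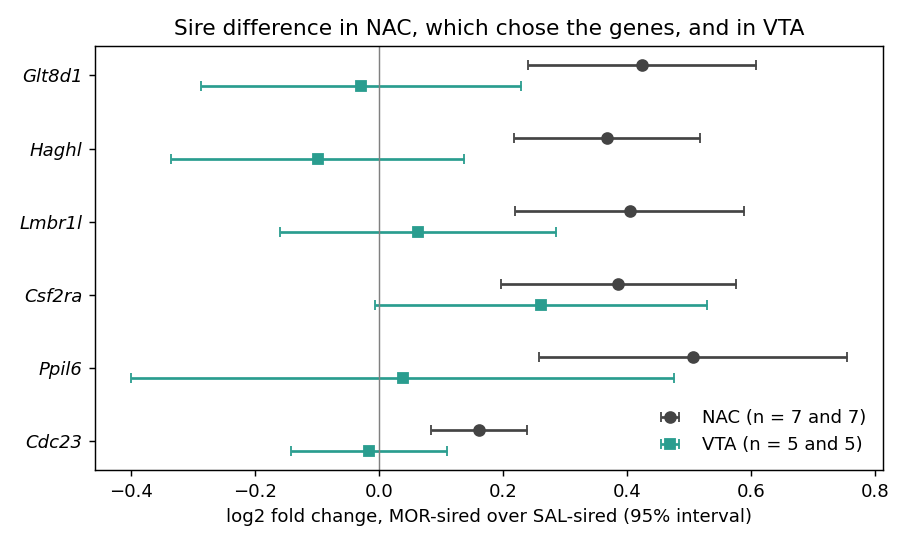
Log2 fold change of MOR-sired over SAL-sired libraries (horizontal axis) with its 95% interval for each gene, in NAC (circles, 7 against 7 libraries) and in VTA (squares, 5 against 5). The NAC estimates, which chose the genes, run from 0.16 to 0.51, and every VTA interval includes 0.

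The level of the genes also differed between the regions. Because the deposited values were scaled from per-length abundances, plain CPM can be compared between genes and is used here. The SAL-sired libraries are given first, since MOR-sired NAC was high by the choice of genes. In them Csf2ra was 6.69 to 9.08 CPM in NAC (7 libraries) and 4.21 to 5.13 CPM in VTA (5 libraries), without overlap. Ppil6 was also lower in VTA, at 3.30 to 6.81 CPM against 6.05 to 8.97 CPM in NAC, with overlap. Haghl went the other way without overlap, from 17.8 to 19.7 CPM in NAC and from 24.2 to 34.9 CPM in VTA. Cdc23 was likewise lower in NAC, at 29.8 to 32.6 CPM, than in VTA, at 38.2 to 44.4 CPM. The share of all genes without overlap between the regions is not given here, so a lack of overlap is not read as particular to these genes. The means of Glt8d1 were 24.3 ± 1.83 in NAC and 29.4 ± 4.87 CPM in VTA (SD), and those of Lmbr1l 14.2 ± 1.54 and 16.8 ± 1.71 CPM, both with overlap.

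With the sire groups pooled, Csf2ra still did not overlap between the regions (6.69 to 12.1 CPM in 14 NAC libraries and 4.21 to 6.37 CPM in 10 VTA libraries), whereas Haghl and Cdc23 did. The pooled means of Glt8d1 (28.6 and 28.3 CPM) and Lmbr1l (16.5 and 16.7 CPM) were close, with the MOR-sired NAC libraries included. The regions were deposited as separate tables and were not tested against each other.

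Within NAC the order from high to low was Cdc23, Glt8d1, Haghl, Lmbr1l, Ppil6 and Csf2ra. Each gene exceeded the next in all 14 libraries, except that Cdc23 exceeded Glt8d1 in 12 and Ppil6 exceeded Csf2ra in 8. In VTA the order was the same apart from the last pair. There Glt8d1 exceeded Haghl in only 6 of 10 libraries and Csf2ra exceeded Ppil6 in 5, so those neighbours were not separated.

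Whether the 6 genes move together from library to library was examined after taking out the sire groups, by centring log2 CPM on the mean of each group. In NAC, all 15 pairs then had a Pearson's r above 0, with a median of 0.484 and a range of 0.146 (Haghl with Ppil6) to 0.741 (Haghl with Cdc23). For comparison, the median over all pairs of 12128 NAC genes of at least 5 CPM was 0.002, with 50.2% of pairs above 0. Those pairs mix genes of both directions, whereas the 6 were chosen for 1 direction in these libraries. Such a choice can favour genes that share a library property unequal between the groups, so the comparison is no test. Within the SAL-sired libraries alone the median over the 15 pairs was 0.304 with 12 above 0, and within the MOR-sired libraries alone it was 0.540 with 15 above 0. Without centring it was 0.814, a value that includes the sire difference by which the genes were chosen. These values share their libraries and scaling factors and are a description.

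In VTA the pattern was looser. The median r over the 15 pairs was 0.309 and 11 were above 0, from 0.779 for Glt8d1 with Lmbr1l to -0.593 for Glt8d1 with Cdc23. Cdc23 had r below 0 with Glt8d1, Lmbr1l, Ppil6 and Csf2ra, and the pair that was closest in NAC, Haghl with Cdc23, had an r of 0.27. Without the libraries with Xist the median was 0.294.

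**Figure D3:**
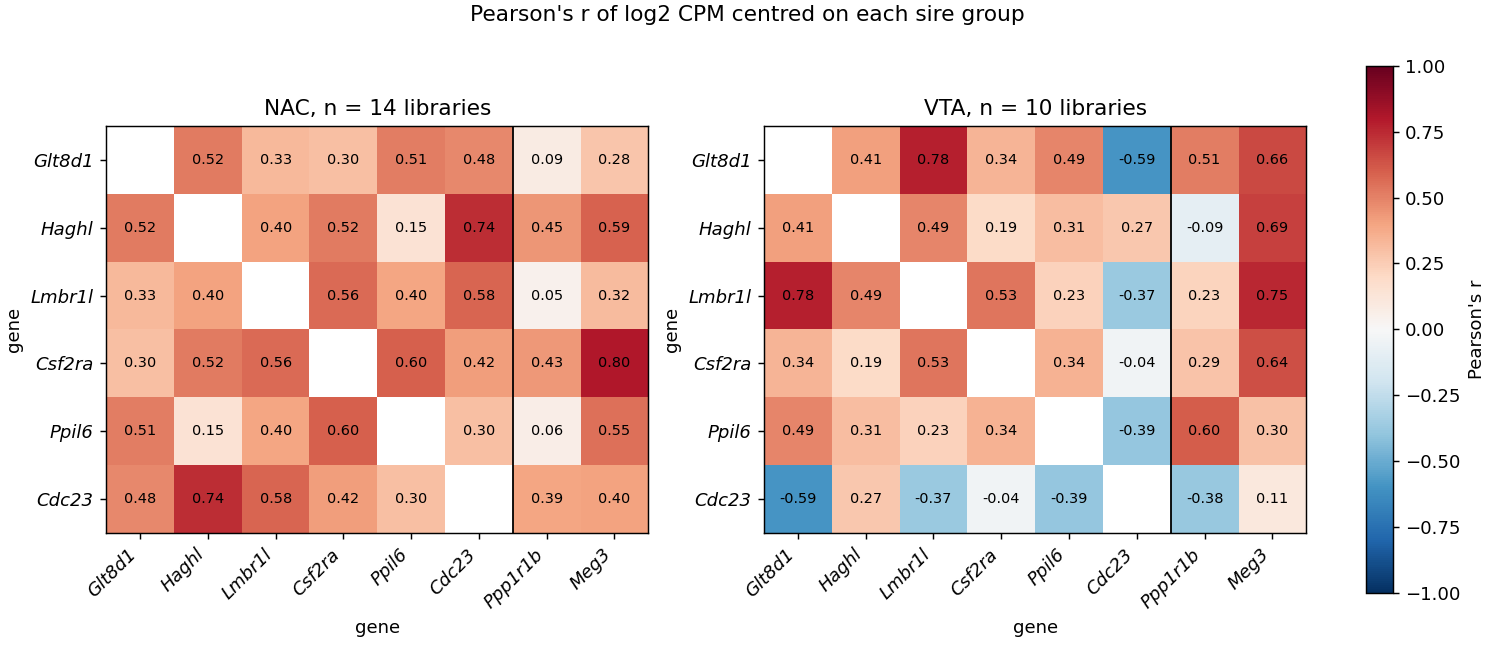
Pearson's r between genes over libraries (rows, the 6 genes; columns, the same genes and then Ppp1r1b and Meg3), for log2 CPM centred on each sire group, in 14 NAC and 10 VTA libraries. All cells among the 6 genes are above 0 in NAC, and in VTA the row of Cdc23 holds 4 values below 0.

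Ppp1r1b and Meg3 were taken as readouts of library makeup: the first follows how much medium spiny neuron RNA a punch holds, and the second is a nuclear RNA of neurons. In NAC, the sire difference of Ppp1r1b was too imprecise to read (log2 difference -0.09, SE 0.60, 95% interval -1.38 to 1.20). Meg3 was 399 to 746 CPM in the SAL-sired group and 452 to 1187 CPM in MOR-sired libraries (log2 difference 0.57, SE 0.21; edgeR, adjusted p = 0.661). In bulk tissue, a change in the number of cells of a type and a change in RNA per cell cannot be told apart. The 12 relations of the 6 genes with these 2 transcripts were tested in each region by permutation (two-sided, 100000 resamples), with adjustment over the 12.

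Of these relations 1 passed in NAC, that of Csf2ra with Meg3. Over 14 libraries Pearson's r was 0.803 (permutation p = 0.00079, adjusted p = 0.00948) and Spearman's rho 0.820 (permutation p = 0.00066, adjusted p = 0.00792). Dropping MOR-sired NAC 4 and 6, whose Meg3 lay farthest from the median, gave an r of 0.737. It was 0.990 within the 7 MOR-sired libraries, 0.599 within the 7 SAL-sired ones, and 0.789 when centred within both library-number ranges. In the MOR-sired group Csf2ra and Meg3 were both lowest in MOR-sired NAC 3 (8.82 and 452 CPM) and both highest in MOR-sired NAC 4 (11.9 and 1187 CPM). Among 12127 NAC genes, 2.27% had a higher r with Meg3 than Csf2ra had.

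The other 5 genes were less closely tied to Meg3. Ppil6 had an r of 0.551 (rho 0.543; permutation p = 0.0429 and 0.0431, adjusted p = 0.257 and 0.259), with similar values within SAL-sired (0.592) and MOR-sired libraries (0.566). Haghl had an r of 0.591 (permutation p = 0.067, adjusted p = 0.268) that joined opposite values, 0.883 within MOR-sired and -0.649 within SAL-sired libraries, and it was 0.264 without MOR-sired NAC 4 and 6. Cdc23, Lmbr1l and Glt8d1 had r of 0.400, 0.318 and 0.277 (permutation p = 0.209, 0.300 and 0.415, adjusted p = 0.41, 0.449 and 0.553).

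Ppp1r1b followed none of the 6 in NAC past the test. The r values were 0.445 for Haghl, 0.431 for Csf2ra, 0.395 for Cdc23 and 0.05 to 0.09 for Lmbr1l, Ppil6 and Glt8d1, with adjusted permutation p from 0.402 to 0.884. For Haghl the sire groups again went opposite ways, with r of -0.893 in the SAL-sired group and 0.676 in MOR-sired libraries. This difference between groups was not tested.

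In VTA, r with Meg3 was 0.752 for Lmbr1l, 0.687 for Haghl, 0.659 for Glt8d1 and 0.642 for Csf2ra, and none passed after adjustment (permutation test over 10 libraries, adjusted p = 0.201, 0.201, 0.208 and 0.208). The Csf2ra value rests on MOR-sired VTA 1 and SAL-sired VTA 1, the lowest in Meg3, since r was -0.04 without them. It was 0.940 within the 5 MOR-sired and -0.05 within the 5 SAL-sired libraries. Ppil6 and Cdc23 had r of 0.295 and 0.105. In the 6 libraries without Xist, r with Meg3 was 0.956 for Haghl, 0.644 for Cdc23, 0.530 for Lmbr1l, 0.502 for Glt8d1, 0.365 for Csf2ra and 0.190 for Ppil6, given as a description.

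**Figure D4:**
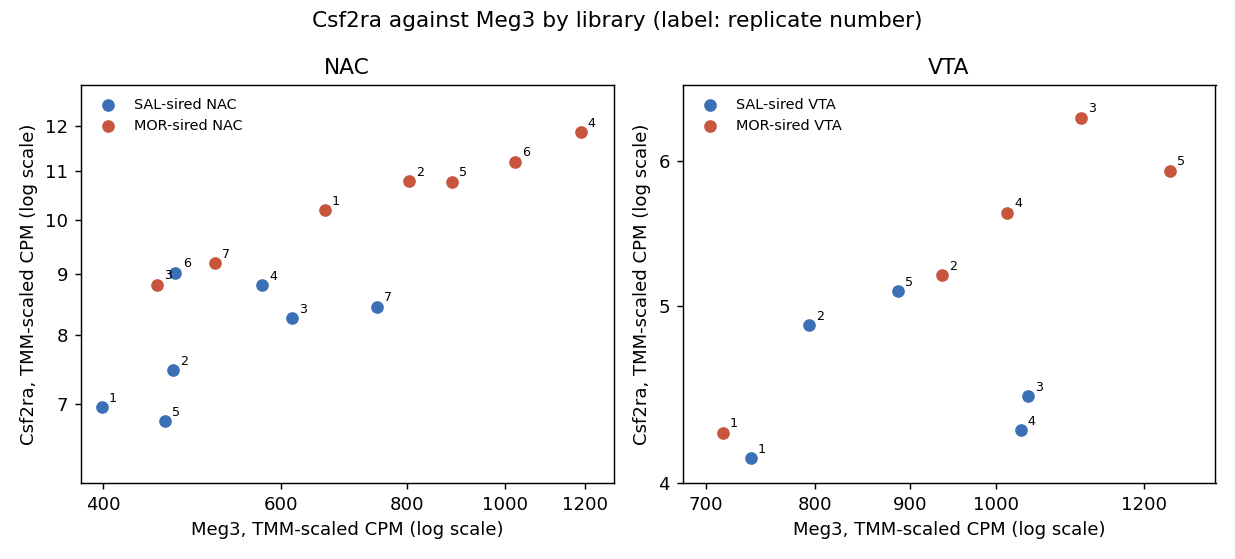
Csf2ra against Meg3 by library, both in TMM-scaled CPM on log axes, in NAC (left) and VTA (right), with SAL-sired libraries in blue, MOR-sired in red and each point labelled by its replicate number. In NAC both rise together from 7 to 12 CPM of Csf2ra, and the MOR-sired points lie along a line (r = 0.990), while in VTA the SAL-sired points show no such order (r = -0.05).

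With Meg3 as a term in the NAC model, the sire difference stayed above 0 for all 6 genes, which their choice favours, and was smaller. It was 0.22 for Csf2ra on the log2 scale, 58.2% of its value without Meg3, against 0.36 for Ppil6, 0.26 for Haghl, 0.34 for Lmbr1l, 0.37 for Glt8d1 and 0.13 for Cdc23 (71.2 to 86.1% of theirs). With Ppp1r1b as the term, 101 to 108% of each difference was left. How much of the Meg3 difference itself belongs to the sires and how much to tissue sampling was not tested.

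**Figure D5:**
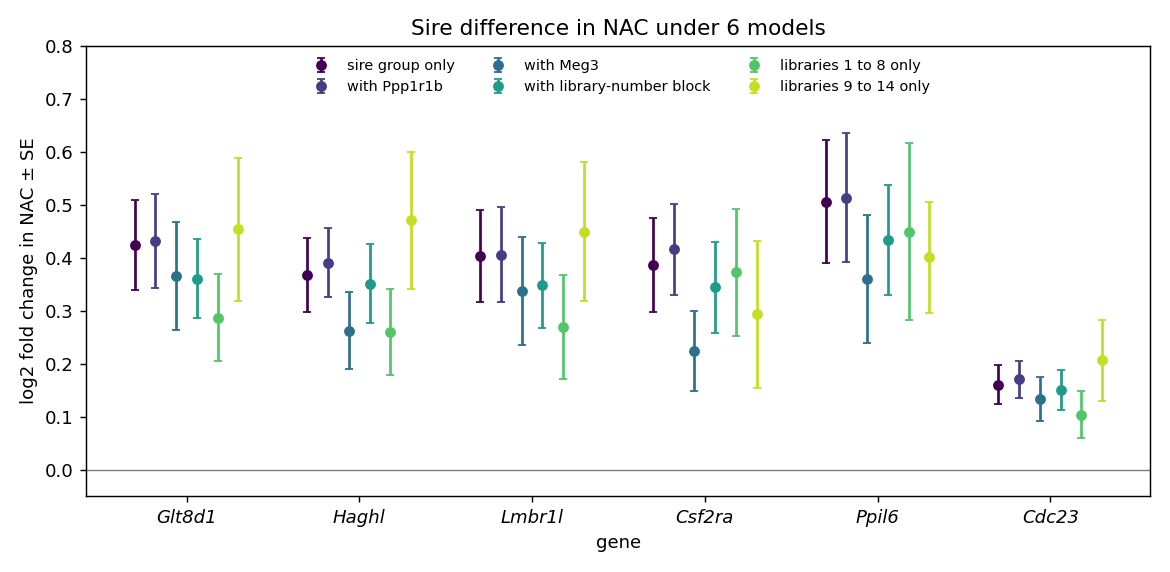
Log2 fold change in NAC ± SE (vertical axis) for each gene under 6 edgeR models: sire group only, with Ppp1r1b, Meg3 or the library-number range as a further term, and within libraries 1 to 8 or 9 to 14. All values are above 0. The value with Meg3 is lower than that with the sire group only for each gene, most so for Csf2ra (0.22 against 0.39).

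Depth and the number of genes detected were compared with the 6 genes as well, in a family of 15 relations per region that was added after the data were seen. None passed by Pearson's r in NAC or VTA. In NAC, rho with the number of genes detected ran from 0.284 (Csf2ra) to 0.552 (Ppil6). The r values were 0.309 to 0.875 within MOR-sired and -0.333 to 0.527 within SAL-sired libraries. Over both groups Glt8d1 had the highest r, 0.483 (permutation p = 0.0404, adjusted p = 0.366). With the library total, Csf2ra had an r of -0.545 in NAC (permutation p = 0.0488, adjusted p = 0.366). In VTA, Lmbr1l followed the number of genes detected with an r of 0.820 (permutation p = 0.0121, adjusted p = 0.181) and a rho of 0.915 (adjusted permutation p = 0.0159), so it passed by rank only. With the 2 libraries most extreme in gene number left out, it was 0.655.

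Markers of the cells in which 3 of these genes are best known were set beside them. Sums over a marker list are in plain CPM, without the TMM factors. Of 13 tested microglia and macrophage markers, 1 was higher and 12 were lower in MOR-sired NAC, opposite to Csf2ra, and their sum was 525 to 605 CPM in the SAL-sired group and 510 to 645 CPM in MOR-sired libraries. The receptor Csf1r, which defines microglia, was at 62.3 ± 3.31 CPM in the SAL-sired group and 55.8 ± 3.37 CPM in MOR-sired NAC (edgeR, adjusted p = 0.562). Across NAC libraries the r of Csf2ra with the mean log2 level of the microglial markers was 0.07 (-0.201 within SAL-sired and 0.257 within MOR-sired libraries). Of 12 motile-cilia markers 6 were higher and 6 lower, with sums of 33.1 to 49.0 CPM in the SAL-sired group and 36.0 to 48.5 CPM in MOR-sired NAC. The r of Ppil6 with their mean log2 level was 0.29, with 0.602 within SAL-sired and 0.043 within MOR-sired libraries. All 10 markers of dividing cells were higher in MOR-sired NAC by a median of 0.18 on the log2 scale, none called, with sums of 15.4 to 37.5 CPM and 11.4 to 41.2 CPM. The r of Cdc23 with their mean log2 level was 0.05, which joined opposite values, 0.744 within SAL-sired and -0.299 within MOR-sired libraries. None of the genes of these 3 lists was at 0 in all NAC libraries.

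In VTA the microglial markers went the same way as Csf2ra, with 11 of the 13 higher in MOR-sired libraries and none called. Tyrobp, a signalling adaptor of microglia, was at a log2 difference of 0.43 there (SE 0.09; edgeR, adjusted p = 0.793), and Csf1r at 0.08. In plain CPM the microglial sums were 635 to 763 in the SAL-sired and 597 to 711 in the MOR-sired VTA libraries. MOR-sired VTA 2 had a TMM factor of 0.849, so its plain CPM are lower than its TMM-scaled CPM. These sums are therefore not on the scale of the log2 differences. With the mean log2 level of these markers Csf2ra had an r of -0.16. Markers of other cell types were also unevenly split in NAC, in several lists towards lower levels in MOR-sired libraries. Markers of 1 cell type share their punches, so such counts are not independent. Of 10 astrocyte markers 9 were lower in MOR-sired NAC, among them the water channel Aqp4 (log2 difference -0.29, SE 0.07; edgeR, adjusted p = 0.56). Their sums were 3933 to 4229 CPM in the SAL-sired and 3650 to 4283 CPM in the MOR-sired libraries. Of 9 endothelial and mural markers 8 were lower, with sums of 311 to 364 CPM and 288 to 337 CPM. The pericyte gene Rgs5 was at -0.17 (SE 0.06; adjusted p = 0.607). Of 10 oligodendrocyte markers 9 were higher, by a median of 0.04, and of 10 markers of cortical glutamatergic neurons 7 were higher, by a median of 0.07. Of 12 markers of medium spiny neurons 11 were lower, by a median of -0.10, with SEs of 0.34 to 0.75 for single genes. All 7 tested choroid plexus markers and all 5 tested blood markers were lower. No marker was called, and the part of these shifts in the differences of the 6 genes was not tested.

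Relatives and partners of each gene were set beside it. In NAC edgeR called no gene, the chosen genes included. A lack of calls among the relatives and partners therefore cannot set them apart from the chosen genes. The directions and sizes of their differences are given as a description. Among 16 subunits and regulators of the anaphase-promoting complex other than Cdc23, 8 were higher and 8 lower in MOR-sired NAC, with a median log2 difference of 0.00. The smallest p in both regions was that of Anapc4, a scaffold subunit, with a log2 difference of 0.13 in NAC (edgeR, adjusted p = 0.809) and -0.09 in VTA (adjusted p = 0.946). Cdc27, which like Cdc23 is a tetratricopeptide-repeat subunit, was at 22.8 ± 2.36 and 22.7 ± 1.54 CPM in the SAL-sired group and MOR-sired NAC.

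Of 9 genes of the glyoxalase pathway and its metallo-beta-lactamase relatives, 2 were higher and 7 lower in MOR-sired NAC. Hagh itself was 130 ± 5.82 CPM in the SAL-sired group and 127 ± 9.68 CPM in MOR-sired NAC, so the 2 paralogs did not go together. Mblac1 had the smallest p of the list in NAC (log2 difference -0.13) and Mblac2 in VTA (-0.12), neither called. Of 9 genes of glycosyltransferase family 8, 5 were higher and 4 lower in NAC, with a median log2 difference of 0.04. Glt8d2, the closest relative of Glt8d1, had a log2 difference of 0.36 in NAC (SE 0.19; edgeR, adjusted p = 0.833) and -0.38 in VTA (SE 0.14; adjusted p = 0.886). Uggt2, a glucosyltransferase of protein quality control with the smallest p in NAC, was at 0.24 (SE 0.12).

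Of the cyclophilins, 12 of 15 were higher in MOR-sired NAC, with a median log2 difference of 0.04. In VTA 13 of the same 15 were lower, and none was called in either region. Nktr, a large cyclophilin first described in natural killer cells, had the smallest p in NAC (40.7 ± 2.96 and 47.2 ± 6.33 CPM, log2 difference 0.21; edgeR, adjusted p = 0.68), and its r with Meg3 was 0.851, above that of Csf2ra. Ppil1, a spliceosomal cyclophilin, was at -0.07 in NAC. Ppic had the smallest p in VTA, at -1.01 (SE 0.48; edgeR, adjusted p = 0.948). Its level there was low and uneven, at 2.43 ± 2.00 CPM in the SAL-sired group (0.832 to 5.76) and 1.19 ± 0.283 CPM in MOR-sired libraries.

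Of 10 genes in the LMBR1 family and among the partners of LMBR1L, 2 were higher and 8 lower in MOR-sired NAC. The kinase Gsk3b, which marks beta-catenin for destruction, had the smallest p there (112 ± 9.55 and 101 ± 8.92 CPM, log2 difference -0.15; edgeR, adjusted p = 0.777). Lmbr1, the paralog of Lmbr1l, was at -0.06 in NAC and 0.09 in VTA. In the GM-CSF pathway 10 of 14 genes could be tested, 5 of them higher and 5 lower in NAC and 7 and 3 in VTA. The beta common chain Csf2rb, without which the alpha chain does not signal, was at 0.751 ± 0.105 CPM in the SAL-sired group and 0.634 ± 0.0776 CPM in MOR-sired NAC, well below Csf2ra. The ligand Csf2 was listed at 0 in all VTA libraries and was under 1 CPM in NAC. Socs2, a feedback inhibitor of cytokine receptors, had the smallest p in NAC (log2 difference 0.19; edgeR, adjusted p = 0.83), and Stat5a, a transcription factor of this receptor, in VTA (0.19; adjusted p = 0.946).

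The NAC genes that varied most like each of the 6, over all 14 libraries after centring, were different for each. They are the highest of 12127 genes over only 14 libraries, so a high r follows from the picking. It was not tested and is a description. They were Tmem150a (r = 0.859), Col11a1 (0.838) and Ager (0.825) for Haghl, and Ftsj1 (0.872), Emc7 (0.855) and Csl1 (0.848) for Glt8d1. Lmbr1l was most like Coasy (0.885), Trip6 (0.866) and Pcyt2 (0.841), and Ppil6 most like Slx1b (0.891), Aifm3 (0.851) and Ccnl2 (0.849). Csf2ra was most like Pxn (0.912), Clk3 (0.894) and Zbtb49 (0.888), and Cdc23 most like Arhgdib (0.879), Pi4k2b (0.872) and Pex16 (0.840). In VTA the same pairs ranged widely: Col11a1 kept an r of 0.821 with Haghl, while Emc7 was at -0.673 with Glt8d1 and Pi4k2b at -0.604 with Cdc23. Csf2ra had the most genes at an r of at least 0.8, 46 of 12127, against 4 to 14 for the other 5.

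The 6 genes lie on 6 chromosomes in RefSeq GRCr8 (10 for Haghl, 16 for Glt8d1, 7 for Lmbr1l, 20 for Ppil6, 14 for Csf2ra and 18 for Cdc23), so they are not neighbours of each other. Haghl overlaps Ccdc78, Glt8d1 overlaps Spcs1 and Cdc23 overlaps Kif20a, each on the opposite strand. Whether the authors' quantification used strand is not stated, and in these 3 a share of reads from the partner cannot be told apart. Ccdc78 and Kif20a were at 0.792 to 1.62 CPM on average in the NAC sire groups, far below Haghl and Cdc23, and had log2 differences of -0.12 and -0.16. Spcs1, at 159 and 162 CPM, was well above Glt8d1 and had a log2 difference of 0.03. Of the genes next to the 6, Ppp2r3b beside Csf2ra had the largest NAC difference (log2 0.20, SE 0.07; edgeR, adjusted p = 0.627), and none was called in NAC or VTA.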

How the data were processed

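Estimated counts per gene, deposited by the authors as 1 table per region, were analysed for 24 libraries. Per the submitters' processing notes, the authors used Trim Galore, kallisto and DESeq2; per the file names, the estimated counts are transcript abundances scaled to each library's total, so they are not numbers of reads and no counting interval was computed. Genome build and annotation: not given in the sources used here. Values were rounded and, in each region separately, genes kept by filterByExpr were tested with edgeR 4.0.16 (R 4.3.3; TMM factors, sire group only, quasi-likelihood test, Benjamini-Hochberg adjustment, called under 0.05, two-sided). Group values are TMM-scaled CPM. Library correlations used log2 CPM (prior count 2) centred on sire groups. Promoters and neighbours came from RefSeq GRCr8.

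The 6 genes, the gene lists and the alternatives were chosen with earlier results of these data known. Named genes were the 6, Ppp1r1b, Meg3, the gene of smallest p in each family list per region, each gene's closest relative, the 3 genes most alike in NAC (mean of at least 5 CPM), the 3 next by p, and defining cell markers. Alternatives were DESeq2 1.42.0, limma 3.58.1 (voom), other scalings, no filter, a replicate block, covariates, library-number ranges, libraries without Xist above 10 CPM and leaving out each library. The edgeR script was tested on simulated counts.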

Additional observations from a re-analysis of the deposited data

Results flagged for a closer look

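The groups of 4 to 10 libraries were screened for a single library far from the rest, in 32 groups of 1 gene and 1 sire group in 1 region, and chance alone marks about 1 in 20 such groups. A single value was marked. Glt8d1 in MOR-sired VTA 5 was 34.7 CPM, while the nearest of the other 4 MOR-sired VTA libraries was 27.4 CPM and the lowest 25.2 CPM. The gap was 0.767 of the group's range, above Dixon's limit of 0.710 for 5 libraries. MOR-sired VTA 5 is 1 of the 4 libraries with Xist, and it was also the highest MOR-sired VTA library for Lmbr1l (20.1 CPM).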

How the results depend on the processing

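Calls over all genes depended on the tool: 0 in NAC by edgeR, 4 by DESeq2 and 52 by limma-voom, and 0 in VTA by edgeR, 30 by DESeq2 and 0 by limma-voom; the cause was not tested. None of the 6 genes was called in VTA under any alternative. NAC differences of the 6 stayed above 0 under all alternatives, a sign that the choice of genes from these same libraries favours. Those that moved most in relative terms were Csf2ra with Meg3 as a covariate (0.22) and Cdc23 within libraries 1 to 8 (0.10). Lmbr1l (0.27), Glt8d1 (0.29) and Haghl (0.26) within libraries 1 to 8 were close behind. Same-numbered libraries did not pair (0 of 7 NAC and 2 of 5 VTA pairs correlated above 0.1), and with a replicate block 0 genes were called in either region (Haghl 0.36 in NAC, Csf2ra 0.25 in VTA). VTA log2 differences near 0 changed sign: with total counts only Lmbr1l -0.0129 and Ppil6 -0.0555; with limma-voom Cdc23 0.00256; without the libraries with Xist Lmbr1l -0.126, Ppil6 -0.218 and Cdc23 0.0233; with Meg3 as a covariate Lmbr1l -0.0117 and Ppil6 -0.0212; within libraries 25 to 28 Haghl 0.0582, Lmbr1l -0.0386, Ppil6 -0.337 and Cdc23 0.0784; within 29 to 37 Glt8d1 0.0288. Leaving out 1 library, VTA differences ranged from -0.121 to 0.0584 for Glt8d1, -0.00522 to 0.117 for Lmbr1l, -0.0695 to 0.183 for Ppil6 and -0.0432 to 0.0147 for Cdc23; for NAC correlations with Ppp1r1b the ranges were -0.152 to 0.281 for Glt8d1, -0.107 to 0.124 for Lmbr1l and -0.084 to 0.293 for Ppil6. The median r among the 6 in NAC was 0.484 and lay between 0.334 and 0.559 without single libraries. Under the other alternatives it ran from 0.287 to 0.814, the highest being the value without centring. In SAL-sired libraries alone 0 of the 12 relations passed (Csf2ra with Meg3, r 0.599, adjusted permutation p = 0.451), and r turned negative with Ppp1r1b for Haghl (-0.893), Glt8d1 (-0.561), Lmbr1l (-0.325) and Cdc23 (-0.078) and with Meg3 for Haghl (-0.649), Glt8d1 (-0.163) and Cdc23 (-0.304). In MOR-sired libraries alone Ppil6 with Ppp1r1b was -0.111. Centred within library-number ranges, r with Ppp1r1b was -0.237 for Glt8d1, -0.257 for Lmbr1l and -0.187 for Ppil6, and with Meg3 -0.053 for Glt8d1. With 5 libraries a group in VTA, folds inside the printed intervals could not be told from 1, and scaled abundances give no counting error.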
